A study of Caenorhabditis elegans with 2 samples.

Results

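Small nucleolar RNA (snoRNA) genes of Caenorhabditis elegans were examined for binding of LIN-1, an ETS-domain transcription factor known for its role at the end of the Ras pathway. All 346 genes of biotype snoRNA on the nuclear chromosomes of the Ensembl annotation of WBcel235 (the same assembly as ce11) were taken, of 46890 nuclear genes of all kinds. A gene was called bound when the summit of a peak, the single position deposited for it, lay within 200 bp of the gene. Chromatin immunoprecipitation with sequencing had been run on whole L4 larvae, 48 hours old, after synchronisation by bleaching and starvation at L1. The strain was RW12212, in which a TY1::EGFP::3xFLAG tag had been inserted into lin-1 by CRISPR (st12212[lin-1::TY1::EGFP::3xFLAG] IV), so every sample carried the tagged protein. Whole animals were used, so cell types are not told apart. The series held 1 group of 2 biological replicates, and the control experiment named in the labels was not used here. The deposited description gives an anti-GFP antibody and the antibody field gives lin-1, and which was used is not resolved here. With 1 group and no control samples no test over samples was possible, so shares are given with exact 95% binomial intervals, which cover counting error over genes only. The number of reads per replicate is unknown from the peak lists. Their nuclear peaks numbered 1054 in the own list of replicate 1, 1326 in that of replicate 2 and 2243 in the conservative list that compares the replicates, and the conservative list is used unless another is named.

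SnoRNAs guide the chemical modification of ribosomal and spliceosomal RNA: box C/D snoRNAs guide ribose methylation, and box H/ACA snoRNAs guide pseudouridylation. Many animal snoRNAs are cut from the introns of host genes, and others are transcribed as units of their own. In tRNA genes, short internal sequences called the A box and the B box are bound by the factor TFIIIC and bring in RNA polymerase III. Genes of spliceosomal snRNAs instead carry a proximal sequence element upstream of their start, which is bound by the snRNA-activating protein complex.

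Stretches upstream of bound snoRNA genes resembled one or the other of these promoter types. A tRNA-type element was defined as an A box (TGG, then 3 bases, then AGTGG) followed on the same strand by a B box (GTTCGA, then 2 bases, then CC), with 25 to 70 bp from the start of the A box to the start of the B box. An snRNA-type element was defined as GGAACCCG, then 5 bases, then TGTCGG. Either was accepted on the strand of the gene with at most 3 mismatches over its fixed letters (16 for the tRNA type and 14 for the snRNA type) between 130 bp before and 15 bp after the gene start. Both definitions were written after the sequences of bound genes had been seen, so the shares below are descriptions and are not independent of the binding. A match is a description of letters and not a shown binding site, and where no match was found nothing is said of any factor.

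The following stretches, read from the WBcel235 reference from 110 bp before the gene start through the first 20 bases of the gene, belong to the 6 genes of tRNA type with the highest signal on chromosomes II to X. They are printed 5′ to 3′ on the strand of the gene, with the A box and the B box in capitals.
T03F7.8, chrV:11314148-11314277, plus strand: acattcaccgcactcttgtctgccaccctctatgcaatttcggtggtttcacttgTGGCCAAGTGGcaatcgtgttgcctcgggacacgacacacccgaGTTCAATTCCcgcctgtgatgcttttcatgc
W03C9.9, chrII:11960788-11960917, plus strand: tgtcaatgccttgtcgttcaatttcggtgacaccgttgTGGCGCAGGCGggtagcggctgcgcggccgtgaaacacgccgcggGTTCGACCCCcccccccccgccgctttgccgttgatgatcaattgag
Y75B12B.12, chrV:15191074-15191203, minus strand: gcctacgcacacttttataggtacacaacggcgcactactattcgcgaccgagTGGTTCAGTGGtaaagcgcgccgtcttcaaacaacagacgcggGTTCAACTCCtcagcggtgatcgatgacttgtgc
C51F7.3, chrV:12303598-12303727, plus strand: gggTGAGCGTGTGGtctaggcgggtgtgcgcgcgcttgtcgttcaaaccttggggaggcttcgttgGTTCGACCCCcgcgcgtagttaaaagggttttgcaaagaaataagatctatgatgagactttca
C41C4.11, chrII:8107251-8107380, minus strand: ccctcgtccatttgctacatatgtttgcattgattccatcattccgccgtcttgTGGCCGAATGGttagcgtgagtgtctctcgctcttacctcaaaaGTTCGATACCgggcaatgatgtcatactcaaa
F55A11.10, chrV:11782882-11783011, plus strand: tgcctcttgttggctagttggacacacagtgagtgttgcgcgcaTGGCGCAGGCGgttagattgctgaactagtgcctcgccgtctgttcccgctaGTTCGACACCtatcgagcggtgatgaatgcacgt

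The 2 snRNA-type genes with the highest signal on chromosomes II to X are given in the same way, with the snRNA-type element in capitals.
ZK994.7, chrV:8500469-8500598, plus strand: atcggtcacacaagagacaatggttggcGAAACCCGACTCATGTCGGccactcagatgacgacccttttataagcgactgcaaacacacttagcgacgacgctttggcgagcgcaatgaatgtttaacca
Y53F4B.47, chrII:15025874-15026003, minus strand: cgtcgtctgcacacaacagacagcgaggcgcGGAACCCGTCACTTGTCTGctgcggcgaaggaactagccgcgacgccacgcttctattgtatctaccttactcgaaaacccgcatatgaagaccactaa

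For comparison, the bound tRNA gene with the highest signal on chromosomes II to X is printed from 10 bp before its start, with its A box and B box in capitals. The bound snRNA gene with the highest signal among those that hold the snRNA-type element there is printed from 110 bp before its start. In the snoRNA genes the pair of boxes lies before the annotated start, and in the tRNA gene it lies inside the gene.
WBGene00023110, chrX:3036154-3036243, plus strand: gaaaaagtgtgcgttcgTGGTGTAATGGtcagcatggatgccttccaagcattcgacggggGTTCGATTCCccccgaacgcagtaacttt
R07E5.16, chrIII:10989569-10989698, plus strand: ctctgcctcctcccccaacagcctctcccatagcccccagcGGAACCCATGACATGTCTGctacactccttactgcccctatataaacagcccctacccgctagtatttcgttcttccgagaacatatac

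LIN-1 summits lay within 200 bp of 78 of the 346 snoRNA genes, or 22.5% (95% interval 18.2 to 27.3). Among all nuclear genes 4.62% were bound by the same rule, and among protein-coding genes 6.08%. All nuclear genes include 15363 piRNA genes with a median length of 21 bp, of which 0.208% were bound. Of the 7764 genes of biotype ncRNA, with a median length of 140 bp, 6.23% were bound. Other small RNA classes known for snRNA-type or RNA polymerase III promoters were bound at 46.1% for tRNA genes and 17.8% for snRNA genes. Longer genes offer more room to a summit, and snoRNA genes are short. Their median length was 130 bp, against 72 bp for tRNA genes, 109 bp for snRNA genes and 2027 bp for protein-coding genes. The 78 genes were reached by 81 distinct summits. A pair of neighbours, C51F7.3 and C51F7.4, shared 1 summit, and 4 genes had 2 summits each.

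Bound shares were far apart between genes with and without an upstream element. Of the 52 genes with the tRNA-type element alone, 40 were bound (76.9%, 63.2 to 87.5). Of the 39 with the snRNA-type element alone, 20 were bound (51.3%, 34.8 to 67.6). The single gene with both, K02C4.7, was bound with the lowest signal of all, at 51.1. Of the 254 genes with neither, 17 were bound (6.69%, 3.95 to 10.5), beside 4.62% of all nuclear genes. Since the definitions were written after bound genes had been seen, the low share of this class is not independent of the binding.

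Read the other way, 61 of 78 bound snoRNA genes (78.2%, 67.4 to 86.8) held an element, and 31 of 268 unbound ones did (11.6%, 8.0 to 16.0). The same window held an element at 0.451% of 19973 protein-coding genes, with 0.275% for the tRNA type and 0.175% for the snRNA type. At snRNA genes 50.4% of windows held the snRNA-type element, and bound shares there were closer, with 14 of 65 snRNA genes bound with it (21.5%) and 9 of 64 without it (14.1%). In a window over the tRNA gene itself, from 30 bp before to 100 bp after its start, 99.7% of tRNA genes held the A and B boxes. On the other strand of the same upstream window, an element was found at 4 of 78 bound snoRNA genes (5.13%) and at 6 of 268 unbound ones (2.24%).

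Within the definitions the bound share showed no steady order with the number of mismatches. With 0 or 1 mismatches to the tRNA-type element 13 of 15 snoRNA genes were bound (86.7%, 59.5 to 98.3), and with 2 or 3 mismatches 28 of 38 were (73.7%, 56.9 to 86.6). At 4 mismatches, just outside the definition, 3 of 25 were bound (12%), and 2 of the 24 of these with neither element (8.33%). For the snRNA-type element 17 of 26 genes were bound at 0 or 1 mismatches (65.4%, 44.3 to 82.8), and 4 of 14 at 2 or 3 mismatches (28.6%, 8.39 to 58.1). Just outside its definition 2 of 8 were bound at 4 mismatches (25%) and 12 of 43 at 5 mismatches (27.9%). These classes also hold genes of tRNA type, and both bound genes at 4 mismatches were of that type. Among genes with neither element, 0 of 6 were bound at 4 mismatches (0 to 45.9). The intervals of the paired classes overlap for both elements. These counts include K02C4.7 under both elements. The intervals of single mismatch classes are wide, since most hold fewer than 20 genes, and the drop for the tRNA type falls where the definition ends.

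**Figure D1:**
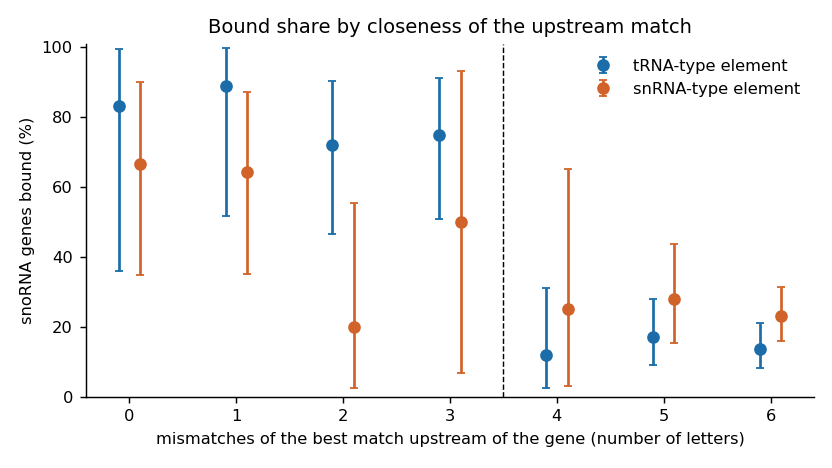
Percentage of snoRNA genes bound (y axis, %) against the number of mismatches of the best upstream match (x axis), for the tRNA-type element (blue) and the snRNA-type element (orange); bars are exact 95% binomial intervals and the dashed line is the limit of the definition. For the tRNA type, 15 of 20 genes were bound at 3 mismatches and 3 of 25 at 4. Genes were counted in each class whether or not they held the other element.

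Replicates gave the same order of the element classes. In the own list of replicate 1, which holds a summit near 2.46% of all nuclear genes, 36 of 52 tRNA-type genes were bound (69.2%), against 10 of 39 snRNA-type genes (25.6%) and 13 of 254 with neither (5.12%). In the own list of replicate 2, with 2.98% of all nuclear genes, the counts were 31 of 52 (59.6%), 14 of 39 (35.9%) and 18 of 254 (7.09%). In the series list, made from both replicates and with 4.78% of all nuclear genes, they were 40, 20 and 19. Over all 346 snoRNA genes, 59 were bound in the own list of replicate 1 (17.1%), 63 in that of replicate 2 (18.2%) and 79 in the series list (22.8%). Of these, 56, 58 and 73 were also bound in the conservative list.

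By place, snoRNA genes in an intron of a protein-coding gene on the opposite strand were bound in 11 of 27 cases (40.7%, 22.4 to 61.2). Intergenic genes were bound in 33 of 124 (26.6%, 19.1 to 35.3). Genes in an intron of a host on the same strand, the arrangement from which snoRNAs can be cut out of the host transcript, were bound in 25 of 142 (17.6%, 11.7 to 24.9), and genes overlapping an exon in 9 of 53 (17.0%, 8.07 to 29.8). The intervals of all 4 places overlap when all snoRNA genes are pooled. Among genes with lower gene numbers, described below, the intervals of intergenic and same-strand intron genes do not overlap.

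Within each place the bound genes were mostly those with an element. In same-strand introns, 23 of 35 genes with an element were bound (65.7%, 47.8 to 80.9) and 2 of 107 without one (1.87%, 0.227 to 6.59). The 2 exceptions were C24A1.8 in elf-1 and F26D10.24 in hsp-1, a gene for a heat shock protein of the HSP70 family, and their summits lay 277 and 298 bp after the gene start, beyond the gene end. Among intergenic genes 23 of 37 with an element (62.2%) and 10 of 87 without one (11.5%) were bound. In opposite-strand introns the counts were 10 of 14 with and 1 of 13 without an element, and over exons 5 of 6 with and 4 of 47 without.

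Introns of ribosomal protein genes are well-known hosts of snoRNAs in animals. Such hosts were taken by name (rpl-, rps- or rla-), so a ribosomal protein gene with another name counts with the other genes. None of the 19 snoRNA genes in same-strand introns of the hosts so named was bound, which allows a share of up to 17.6%. None of the 19 held an element. Of the 123 in same-strand introns of other genes, 25 were bound (20.3%).

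**Figure D2:**
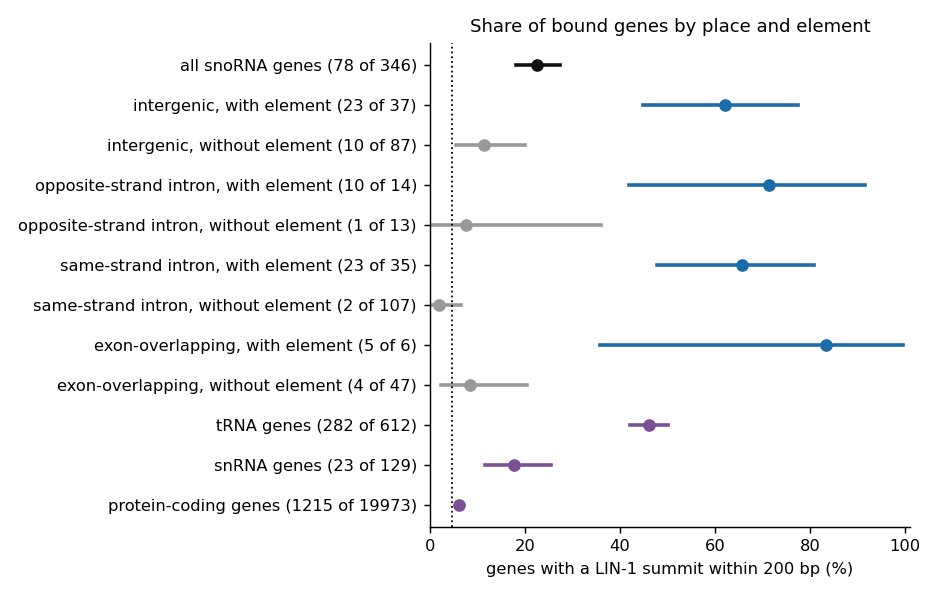
Percentage of genes with a LIN-1 summit within 200 bp (x axis, %) for snoRNA genes by place, with (blue) and without (grey) an upstream element, and for tRNA, snRNA and protein-coding genes (purple); points are shares, bars exact 95% binomial intervals, and the dotted line is the 4.62% of all nuclear genes. In each place the share with an element is higher, such as 65.7% with and 1.87% without in same-strand introns.

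Bound shares were similar on both strands, with 42 of 183 genes on the plus strand (23.0%) and 36 of 163 on the minus strand (22.1%). By chromosome they ran from 18 of 55 on V (32.7%) and 22 of 71 on II (31.0%) through 18 of 74 on I (24.3%), 10 of 59 on IV (16.9%) and 9 of 54 on III (16.7%) to 1 of 33 on X (3.03%, 0.0767 to 15.8). The X chromosome held 4 genes with an element, of which C53B7.8 was the bound one. On chromosome IV 9 of 20 genes with an element were bound (45%), and on chromosome I 14 of 16 (87.5%). Chromosomes also differed in gene number, which is described next. On X 30 of the 33 genes had higher numbers, and 0 of these were bound. On IV 2 of 36 genes with higher and 8 of 23 with lower numbers were bound, and on I 3 of 48 and 15 of 26. Chromosome and gene number were not told apart.

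The gene number in the annotation also went with binding. WormBase gene numbers of snoRNA genes fell into 2 blocks with a wide gap, between 77517 and 195245, and the split was chosen after the data had been seen. In the block of higher numbers 17 of 207 genes were bound (8.21%, 4.86 to 12.8), and in that of lower numbers 61 of 139 (43.9%, 35.5 to 52.5). An element was present at 21 of the 207 genes with higher numbers, of which 3 were bound, and at 71 of the 139 with lower numbers, of which 58 were bound (81.7%). Among same-strand intron genes with lower numbers, 22 of 29 with an element and 0 of 55 without one were bound. Intergenic genes with lower numbers were bound in 24 of 32 cases (75%, 56.6 to 88.5). Same-strand intron genes with lower numbers were bound in 22 of 84 (26.2%, 17.2 to 36.9), and the intervals do not overlap. With an element the intervals overlap, at 22 of 25 intergenic (68.8 to 97.5) and 22 of 29 same-strand intron genes (56.5 to 89.7). Among higher numbers they also overlap, at 9 of 92 intergenic (4.57 to 17.8) and 3 of 58 same-strand intron genes (1.08 to 14.4). The contrast between genes with and without an element was carried by the lower numbers, where 58 of 71 genes with an element and 3 of 68 without one were bound (4.41%, 0.919 to 12.4). Among higher numbers it was 3 of 21 with an element (14.3%, 3.05 to 36.3) and 14 of 186 without one (7.53%, 4.18 to 12.3), and the intervals overlap. There, intergenic genes were bound in 1 of 12 cases with and 8 of 80 without an element, same-strand intron genes in 1 of 6 with and 2 of 52 without, opposite-strand intron genes in 1 of 2 with and 0 of 11 without, and exon-overlapping genes in 0 of 1 with and 4 of 43 without.

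The summits lay just upstream of the genes. Measured along the gene strand, the nearest summit was at a median of −33 bp from the gene start (quartiles −59.3 and −5; range −200 to 298; n = 78). It lay upstream of the start at 59 genes, inside the gene at 14 and beyond its end at 5. At 52 of 78 genes (66.7%) it fell in the 80 bp before the start.

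At the 40 bound tRNA-type genes the A box began at a median of −58 bp and the B box at −14 bp. The spacing from box to box had a median of 44 bp, and 29 of 40 genes had 44 or 45 bp. Summits at these genes were at a median of −44.5 bp (quartiles −60.3 and −23.8), with 35 of 40 (87.5%) in the 80 bp before the start. They lay a median of 18 bp after the start of the A box, and 33 of 40 fell between 15 bp before the A box and the end of the B box.

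At the 20 bound snRNA-type genes the element began at a median of −60 bp, within 5 bp of that position at 15 of them. Summits lay closer to the gene start than at tRNA-type genes, at a median of −20.5 bp (quartiles −34.3 and 12), and after the start of the element at 19 of 20. At the 17 bound genes with neither element the median was −31 bp, but the positions were scattered from −200 to 298 bp and 5 of 17 lay in the 80 bp before the start. The summit lay in the promoter window of a protein-coding gene (1000 bp upstream to 200 bp downstream of its start) at 7 of these 17, at 10 of the 40 tRNA-type and at 6 of the 20 snRNA-type genes.

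Against the median of −44.5 bp at tRNA-type snoRNA genes, bound tRNA genes had their summits at a median of 10 bp after the gene start (n = 282). Counted from the start of the A box, the medians were 18 bp for the snoRNA genes and 4 bp for the tRNA genes, whose boxes lie inside the gene. Against −20.5 bp at snRNA-type snoRNA genes, the median at bound snRNA genes was −5 bp (n = 23). Counted from the start of the snRNA-type element, the medians were 47 bp for the snoRNA genes and 74.5 bp for the 14 bound snRNA genes that held it. No summit at a bound snoRNA gene lay within 200 bp of an annotated tRNA gene.

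**Figure D3:**
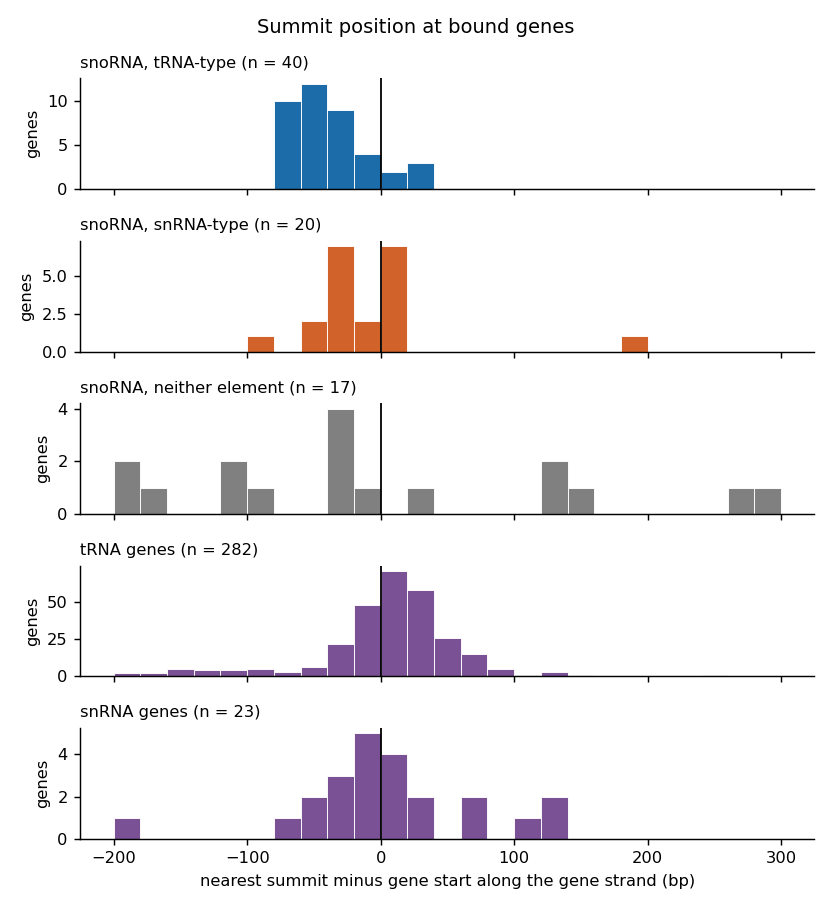
Number of bound genes (y axis) by position of the nearest summit relative to the gene start along the gene strand (x axis, bp, bins of 20 bp; 0 is the start), for snoRNA genes of tRNA type, snRNA type and neither, for tRNA genes and for snRNA genes. The tRNA-type summits centre at −44.5 bp and those of tRNA genes at 10 bp.

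**Figure D4:**
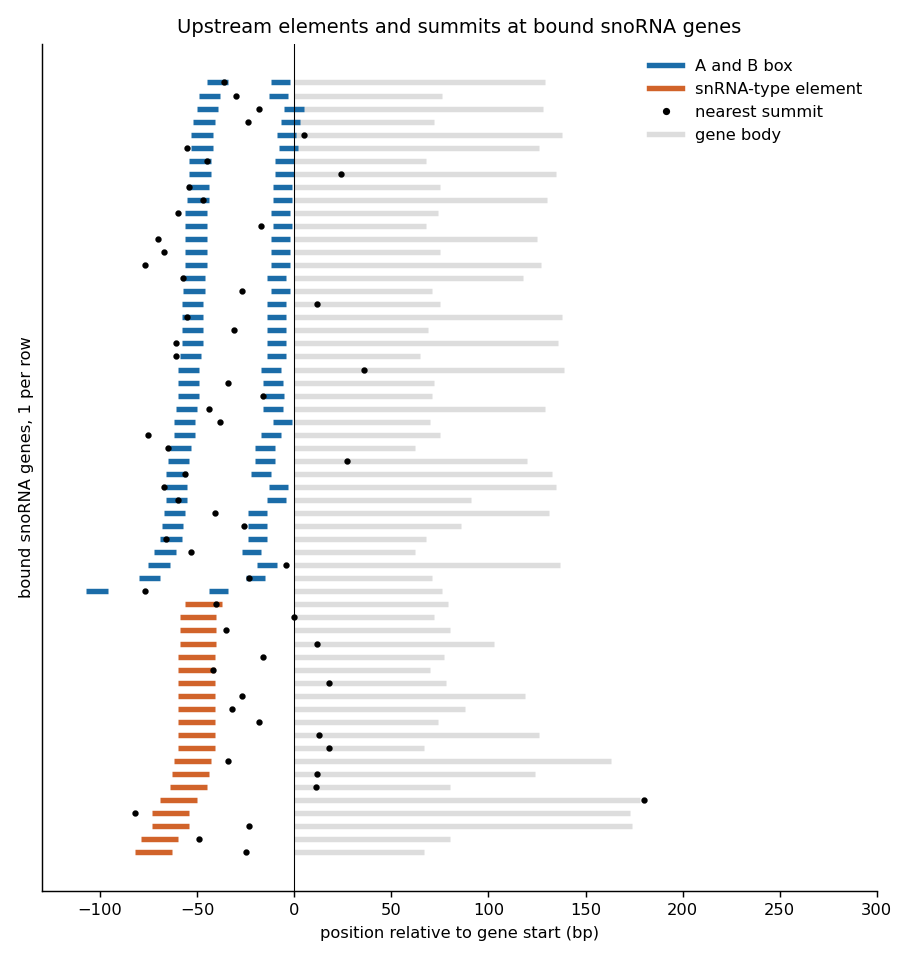
Each row is 1 of the 40 bound tRNA-type (top) or 20 bound snRNA-type (bottom) snoRNA genes, drawn to scale relative to the gene start (x axis, bp), with the A and B boxes in blue, the snRNA-type element in orange, the gene in grey and the nearest summit as a black point. The A box starts at a median of −58 bp and the snRNA-type element at −60 bp.

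Peak signal, the value the authors gave each peak on a scale that is not stated, was higher at snoRNA genes than at most peaks. Its median was 105.6 at the 78 bound genes (quartiles 75.5 and 141.5; range 51.1 to 302.1), and 62 of the 78 exceeded 73.8, the median of all 2243 nuclear peaks. By element the medians were 118.5 for the tRNA type, 82.7 for the snRNA type and 95.8 for neither. Of the 20 genes with the highest signal, 14 were of tRNA type, 3 of snRNA type and 3 had neither element, and all 20 had peaks in both replicates' own lists.

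The highest signal, 302.1, was at ZK994.7, an snRNA-type gene in an intron of pxn-1, a peroxidasin gene. The peak reached 144.9 in replicate 1 and 161.4 in replicate 2. The summit was 25 bp before the gene start. Both replicates thus placed it above every other snoRNA gene. T03F7.8, a tRNA-type gene in an opposite-strand intron of cutl-18, followed with 230.9, and with 106.9 in replicate 1 and 114.3 in replicate 2. Its summit lay 54 bp before the start, at the A box printed above.

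C51F7.3 and C51F7.4 lie next to each other in frm-7, a FERM-domain gene, and shared a peak of signal 213.9, with 116.0 in replicate 1 and 100.1 in replicate 2. The tRNA-type element of C51F7.3, from its A box to its B box, lies wholly inside the annotated C51F7.4, which ends shortly before C51F7.3 begins. The shared summit falls 77 bp before the start of C51F7.3 and 32 bp inside C51F7.4, between the boxes. C51F7.3 carries box C and box D sequences.

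Intergenic genes of tRNA type came next. W03C9.9 had 207.0, with 84.3 in replicate 1 and 118.4 in replicate 2. Y75B12B.12 had 182.4, with 92.1 in replicate 1 and 96.4 in replicate 2. In these genes the boxes printed above match the definition with 2 and 1 mismatches, in that order. ZK265.10 had 176.7 and C41C4.11 had 175.4. The summits of the last 3 also lay in promoter windows of protein-coding genes, Y75B12B.11 for Y75B12B.12, sre-23 for ZK265.10, and C41C4.9 and chst-1 for C41C4.11.

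Hosts of the other strongly bound intronic genes were of many kinds. F55A11.10, a box C/D gene in F55A11.6, had 165.8. C27H6.5 in unc-41, a gene known for its role in synaptic vesicle recycling, had 154.3, with 94.3 in replicate 1 and 55.5 in replicate 2. C10C6.8 in catp-8, a cation-transporting ATPase gene, had 144.9, and M106.6 in mix-1, a condensin subunit gene, had 135.3. All 4 were of tRNA type on the strand of the host, with summits 56 to 75 bp before their starts. In opposite-strand introns, ZK484.9 in haf-9 had 170.4 and C27H5.9 in pdl-1 had 150.5.

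The 20 highest also held T02E1.9, which overlaps an exon of spe-12, at 173.0, and the intergenic T19B4.8 at 155.3 and F30H5.4 at 146.1, all of tRNA type. The intergenic snRNA-type genes F59C6.15 and Y53F4B.47 had 165.2 and 164.3. The next genes with peaks in both own lists were F32E10.10, C05D2.15 in madf-11, T06C12.16, C53B7.8, Y43F8C.22 and T10B9.11 of tRNA type, with 118.0 to 141.3. Y37E3.20 in pcyt-2.1 was of snRNA type at 129.5. F39B2.14 and W06H8.17 had neither element, at 136.9 and 133.9, and both of their summits lay in promoter windows of protein-coding genes. So did the summits of T02E1.9, F59C6.15, Y53F4B.47 and T10B9.11, and that of F55A11.10 named above, all of which held an element.

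Strong peaks without an element were few. The highest signal in that class, 213.9, was at C51F7.4, whose summit is the one shared with C51F7.3. That summit lies between the boxes of C51F7.3, so this peak is counted under both classes. Y23H5B.10, an intergenic gene, had 171.2, with a summit 26 bp before its start, and its best tRNA-type match had 4 mismatches. B0334.12 in an opposite-strand intron of twk-5, a potassium channel gene, had 141.6, with the summit 145 bp after its start, beyond the gene. At the other end of the range F07A11.15, which overlaps an exon of din-1, had 51.9 and T06D8.11, an snRNA-type gene in plpr-1, had 56.6.

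Signal in the 2 replicates was alike at most bound genes. A peak of the ranked list of both replicates overlapped the conservative peak at 77 of 78 genes, and replicate 2 over replicate 1 had a median of 1.05 (range 0.511 to 2.19), with 74 of 77 within 2-fold. The same ratio had a median of 1.14 over the 2192 nuclear peaks with both. It was 0.973 for tRNA-type, 1.11 for snRNA-type and 1.2 for genes with neither element. F59C6.15, an intergenic snRNA-type gene, was an example of a wide difference, with 54.0 in replicate 1 and 118.4 in replicate 2.

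By the stricter count, 47 of the 78 bound genes had a peak in both replicates' own thresholded lists, 10 in that of replicate 1 only, 11 in that of replicate 2 only and 10 in neither. Both lists held 29 of the 40 bound tRNA-type genes, 7 of the 20 snRNA-type genes and 11 of the 17 with neither.

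**Figure D5:**
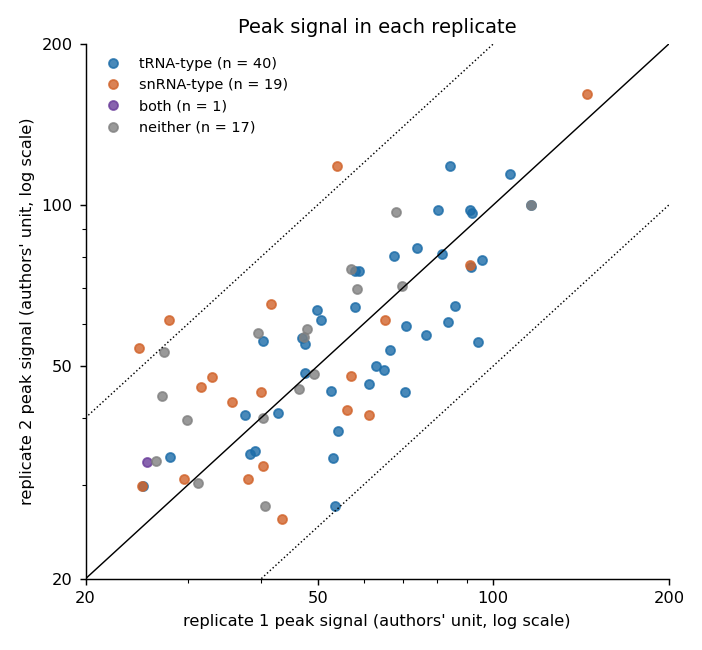
Peak signal in replicate 1 (x axis) and replicate 2 (y axis), in the authors' unit on log scales, for the 77 bound snoRNA genes with a ranked peak in both, coloured by upstream element; the solid line marks equal signal and the dotted lines a 2-fold difference. Of the 77 points 74 lie within the dotted lines, and the highest is ZK994.7.

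The 3 bound genes farthest inside the limit of 200 bp were W06H8.17 and T28B8.11, both at 200 bp, and F26D10.24 at 175 bp. The 3 unbound genes nearest outside it were R166.10 at 210 bp, F54E7.10 in rps-12 at 247 bp and K02F3.15 in zip-2 at 256 bp. None of the 6 held an element.

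Among the 268 unbound genes, 130 had a peak of the ranked conservative list below the threshold within 200 bp, with a median signal of 26.3. Such a peak was found at 17 of the 31 unbound genes with an element (median 34.5) and at 113 of the 237 without one (median 25.7). The highest were T21B4.20 at 72.7, F59G1.14 in cgt-3 at 64.8, K11C4.6 in unc-70, the beta-spectrin gene, at 62.6 and W03B1.17 at 58.5. Of these K11C4.6 was of tRNA type and W03B1.17 of snRNA type, and the other 2 had neither.

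SmY RNAs are a nematode family tied to trans-splicing, and the annotation places most of their genes with the snRNAs but smy-2 and smy-3 with the snoRNAs. Of these, smy-3 was bound at a signal of 68.5 and smy-2 was not, with a ranked peak of 50.9 below the threshold. Both held the snRNA-type element, smy-3 with 2 mismatches and smy-2 with 0.

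By sequence class, 12 genes had box C (ATGATGA or GTGATGA) in the first 25 bases and box D (CTGA) in the last 20, and 5 of them were bound (41.7%, 15.2 to 72.3). Another 58 ended in ACA and 3 further bases, as box H/ACA snoRNAs do, and 16 were bound (27.6%, 16.7 to 40.9). Of the ACA-ended genes 15 of 18 with the tRNA-type element were bound (83.3%) and 1 of 40 without an element (2.50%). The other 276 genes met neither rule, and 57 were bound (20.7%). With 1 mismatch allowed in box C, 42 genes met the box C/D rule and 20 were bound (47.6%), so the class sizes depend on the exact letters.

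A run of TTTT on the gene strand, the kind of sequence at which RNA polymerase III ends transcription, was found in the 50 bp after the gene at 67 of 78 bound (85.9%) and 174 of 268 unbound snoRNA genes (64.9%). It was present after 96.2% of tRNA-type, 74.4% of snRNA-type and 63.4% of genes with neither element, and after 98.9% of tRNA genes. It was counted without regard to base composition.

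Of the sequences counted at the summits, CCGGAA and GGAAG hold the GGAA core known for ETS factors. Within 50 bp to either side of the summit and on either strand, CCGGAA was present at 3 of 78 bound snoRNA genes (3.85%) and in 3.39% of all 2243 nuclear peaks, and GGAAG at 10.3% and in 18.6%. GAGAGAGA, a repeat that is no ETS sequence, was present at 0 of 78 and in 4.77%. A strict B box, GTTCNANNC, was present at 21.8% and in 9.32%. In the gene and its 100 bp upstream the strict B box was found at 37.2% of bound and 11.9% of unbound snoRNA genes and at 96.2% of tRNA genes. In the same stretch TATAAA on the gene strand was found at 7.69% of bound and 10.8% of unbound snoRNA genes.

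Proteins that build snoRNA particles or transcribe snoRNA genes were checked through a list of 20 genes. A summit lay in the promoter window of 3 (15%, 3.21 to 37.9), and in that of 5.25% of all nuclear protein-coding genes, a share that the interval holds. These were xrn-2, a nuclear exonuclease, at a signal of 93.3, and ruvb-1 and ruvb-2, the ATPases that help to assemble the particles, at 79.3 and 52.3. None was found at the core genes of box C/D particles (fib-1, nol-56, nol-58 and snu-13), at those of box H/ACA particles (dkc-1, garr-1, Y48A6B.3 and nola-3), or at tgs-1, tbp-1, brf-1, rpc-1, snpc-4, snpc-1.1, snpc-1.2, snpc-1.3 and snpc-3.1.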

How the data were processed

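Peak lists of LIN-1 ChIP-seq on ce11 were deposited by the authors, per the file headers and labels. Peaks had been ranked by the irreproducible discovery rate (IDR), per the deposited names, with a signal value per peak (scale not stated, by the authors) and, in ranked lists, the −log10 of the global IDR, deposited by the authors; thresholded lists hold peaks at an IDR of 0.01 or less. The sources used here do not give the peak caller or the aligner. Many peaks at bound snoRNA genes had the same width with the summit at the middle. How summits were placed is not stated. Reads were not analysed here, so depth is unknown.

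Summits (1-based) were set against Ensembl 115 genes with Python 3.11.15, pandas 2.3.3, numpy 2.4.6 and scipy 1.17.1; no peak passed a chromosome end. A replicate's signal is the highest ranked peak overlapping the conservative peak. A gene overlapping any exon of a protein-coding gene was counted as exonic; hosts are protein-coding. Distances and element positions were tested on simulated data. No 2 snoRNA genes had identical sequences, and no bound gene's peak repeated the replicate signals of a stronger peak.

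Members and lists were chosen with earlier results of these data known. Genes were named by rule: the 20 highest signals, those in both replicates' own lists (up to 30), the 3 lowest, shared summits, 3 on each side of the distance limit, up to 4 unbound genes with the highest ranked signal, hosts, and snoRNP genes with a promoter summit. smy-2, smy-3 and the genes bound in same-strand introns without an element were named after their values were seen. Alternatives covered lists, IDR, distance, places, windows and mismatches.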

Additional observations from a re-analysis of the deposited data

How the results depend on the processing

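The number of bound snoRNA genes was 78 and stayed within 1.5 times of that under the series list (79), an IDR of 0.001 (62), distances of 100 and 500 bp (71 and 90), and with each replicate left out (59 to 63). It was 47 with peaks in both replicates' own lists, 45 with 50% overlap, 14 with the summit inside the gene and 17 for higher gene numbers only. The median summit position turned from −33 to 15.5 bp with the summit required inside the gene, which follows from that rule. Genes of tRNA type were bound in 76.9%, in 59.6 to 69.2% with a replicate left out, in 55.8% with both own lists, in 9.62% inside the gene and in 57.7% without summits in promoter windows. For the snRNA type 51.3% became 25.6 to 35.9% with a replicate left out, 17.9% with both own lists and 17.9% inside the gene. Genes with neither element moved from 6.69% to 0.787% (inside the gene), 3.94% (100 bp), 11.42% (500 bp), 11.42% (IDR of 0.05) and 3.94% (no summits in promoter windows). An element was present at 78.2% of bound genes, at 57.7% with at most 2 mismatches and at 95.1% among lower gene numbers. With at most 2 mismatches 8.96% of unbound genes held one, and with at most 4, 22%. Intergenic genes made up 42.3% of bound genes, 28.6% inside the gene and 30.4% without summits in promoter windows. Same-strand introns made up 32.1%, or 46.2% for introns on either strand and 57.7% for any overlap with a protein-coding gene. A strict B box was at 21.8% of summits, at 38.5% with 100 bp to either side and 37.2% in the gene with 100 bp upstream. Where no rule sets the change, the cause was not tested. The other 87 of 112 recomputed values stayed within their limits. The element definitions, mismatch settings, gene number split, IDR of 0.05 and the loss of promoter summits were chosen after seeing the data. No paired analysis was possible because the series holds 1 group.

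Limits are the 2 replicates, the absence of control samples here, the unknown read depth and the unstated scale of the signal. The element letters were taken from bound genes, so their shares describe these genes only.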
